A study of Mus musculus with 12 samples.

Results

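The contractile and wound-response program of fibroblasts was followed through 10 genes: the smooth muscle actins Acta2 and Actg2, the actin-binding proteins Tagln, Cnn1 and Cnn2, the myosin light chain Myl9, the tropomyosins Tpm1 and Tpm2, and the secreted matricellular proteins Ccn1 and Ccn2. They were taken by gene symbol from a fixed list of 10 names, and all 10 were found among the 12591 genes of the deposited table. The cells were PER2::LUC mouse embryonic fibroblasts on a C57 background, prepared from heterozygous knock-in mice whose clock protein PER2 carries luciferase. At confluence, they were left for 24 h in medium with 1 mM adenine, 1 mM S-adenosylmethionine (SAM, the methyl donor of the cell), 10 μM Deazaneplanocin A (DZ, an inhibitor of the enzyme AHCY, which removes the by-product of methylation), or none of these (CTL). All 4 groups, CTL included, also received 3.3 mM HCl, the solvent of adenine, and each group had 3 replicate dishes. Nothing in the labels ties the dishes to separate animals, so the p-values given here measure the spread between dishes and not between animals. Levels are given as log2 CPM, the log2 of read counts that the authors scaled to a common depth (CPM) with normalized library sizes.

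Myofibroblasts are fibroblasts that assemble contractile stress fibers, and smooth muscle actin is their usual marker. Serum response factor (SRF) turns on many stress fiber genes through a promoter element called the CArG box, together with the MRTF cofactors, which monomeric actin holds back. YAP and TAZ are cofactors that act through the TEAD transcription factors, are kept out of the nucleus by the LATS kinases of the Hippo pathway, and have Ccn1 and Ccn2 among their best-known targets. Both systems respond to cell tension and spreading, and several of these genes respond to both.

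The reads on the listed genes, recovered from the deposited values, ranged from 45649534 to 56789090 per library, and every member except Actg2 had at least 5138 reads in each library. Of 12 fibroblast markers, 10 were in the table, Col1a1, Col1a2 and Vim among them, while Dcn and Lum were not found among the listed genes. Of the smooth muscle markers, Smtn, Lmod1 and Mylk were listed, and the defining genes Myh11, Myocd, Des and Synpo2 were not found among the listed genes. None of 6 endothelial and 6 epithelial markers was listed, and of 8 leukocyte markers only Cd68. In bulk RNA, fewer cells expressing a gene and less of its RNA per cell cannot be told apart.

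Promoter windows on GRCm39, from 250 bases before to 50 bases after the start of the canonical transcript in GENCODE vM39, were searched for the CArG box and for the TEAD motif GGAATG on both strands. The CArG box was taken as an exact match to CCWWWWWWGG, where W is A or T. The sequences are shown because SRF and TEAD factors bind these elements. The members were chosen by name as myofibroblast genes and targets of YAP or SRF. The shares of members and of all windows with a motif are therefore a description and not an independent test. A CArG box was found in 2 of the 10 members' windows and in 181 of 12574 windows of the genes in the table (1.44%), and the TEAD motif in 4 of 10 and in 1610 of 12574 (12.8%). The stretches around the matches are given 5′ to 3′ in the direction of transcription, with the CArG box or TEAD motif in capitals.
Tagln, chr9:45847444-45847483, minus strand: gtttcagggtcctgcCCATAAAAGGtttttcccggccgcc
Cnn2, chr10:79824363-79824402, plus strand: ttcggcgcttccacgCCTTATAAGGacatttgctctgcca
Acta2, chr19:34233035-34233070, minus strand: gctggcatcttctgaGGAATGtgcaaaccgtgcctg
Tpm1, chr9:66957130-66957165, minus strand: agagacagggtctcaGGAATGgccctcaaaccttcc
Ccn1, chr3:145355823-145355858, minus strand: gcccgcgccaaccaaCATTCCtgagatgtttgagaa
Ccn2, chr10:24471220-24471329, plus strand: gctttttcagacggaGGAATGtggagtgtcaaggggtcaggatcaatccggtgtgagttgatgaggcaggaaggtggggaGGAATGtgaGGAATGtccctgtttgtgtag
Ccn2 held 3 TEAD motifs, at -98 to -93, -33 to -28 and -24 to -19 from its start, whereas the other 3 genes held 1 each. The CArG boxes of Tagln and Cnn2 lay at -64 to -55 and -33 to -24. The windows of Actg2, Cnn1, Myl9 and Tpm2 held neither sequence. Imperfect copies and elements outside the windows were not searched for, so a window without a match does not mean a gene without the element.

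**Figure D1:**
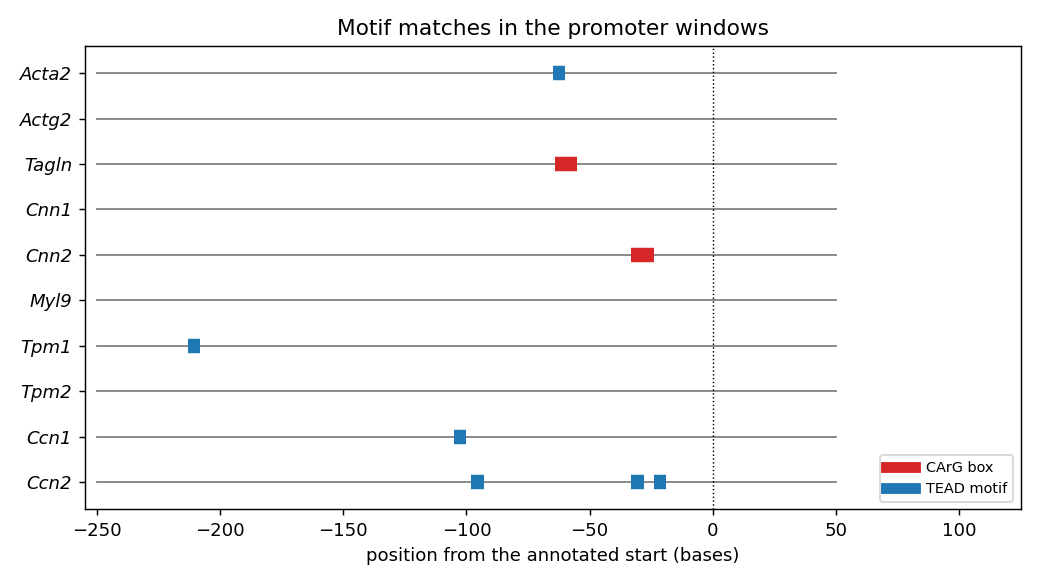
Positions of CArG box (red) and TEAD motif (blue) matches in the promoter windows of the 10 genes, in bases from the annotated start (dotted line). Matches lie in 6 of the 10 windows, and Ccn2 holds 3 TEAD motifs within 100 bases of its start.

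Each treatment gave the 10 genes a different profile. Adenine raised most of them, DZ lowered most of the contractile genes and raised Ccn2, and SAM lowered Acta2 and Tagln while raising 5 others. Under DZ, 7 of 10 were changed (2 higher and 5 lower) in limma at a Benjamini-Hochberg false discovery rate under 0.01 over all genes, against 45.9% of all genes tested (22.6% higher and 23.4% lower). Adenine changed 9 of the 10, with 8 up and 1 down, where 61.6% of all genes were called (30.6% higher and 31% lower). For SAM the count was 7 of 10, with 5 up and 2 down, which is close to the 69.3% of all genes (33.7% higher and 35.7% lower). The median log2 fold change of the members was -0.16 under DZ, 0.31 under adenine and 0.12 under SAM, beside medians over all genes of -0.0057, -0.0030 and -0.015. The 3 comparisons share their CTL libraries. With plain read totals as scaling, the median of all genes under SAM moves from -0.015 to 0.11, so fold changes under SAM of about that size depend on the scaling.

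**Figure D2:**
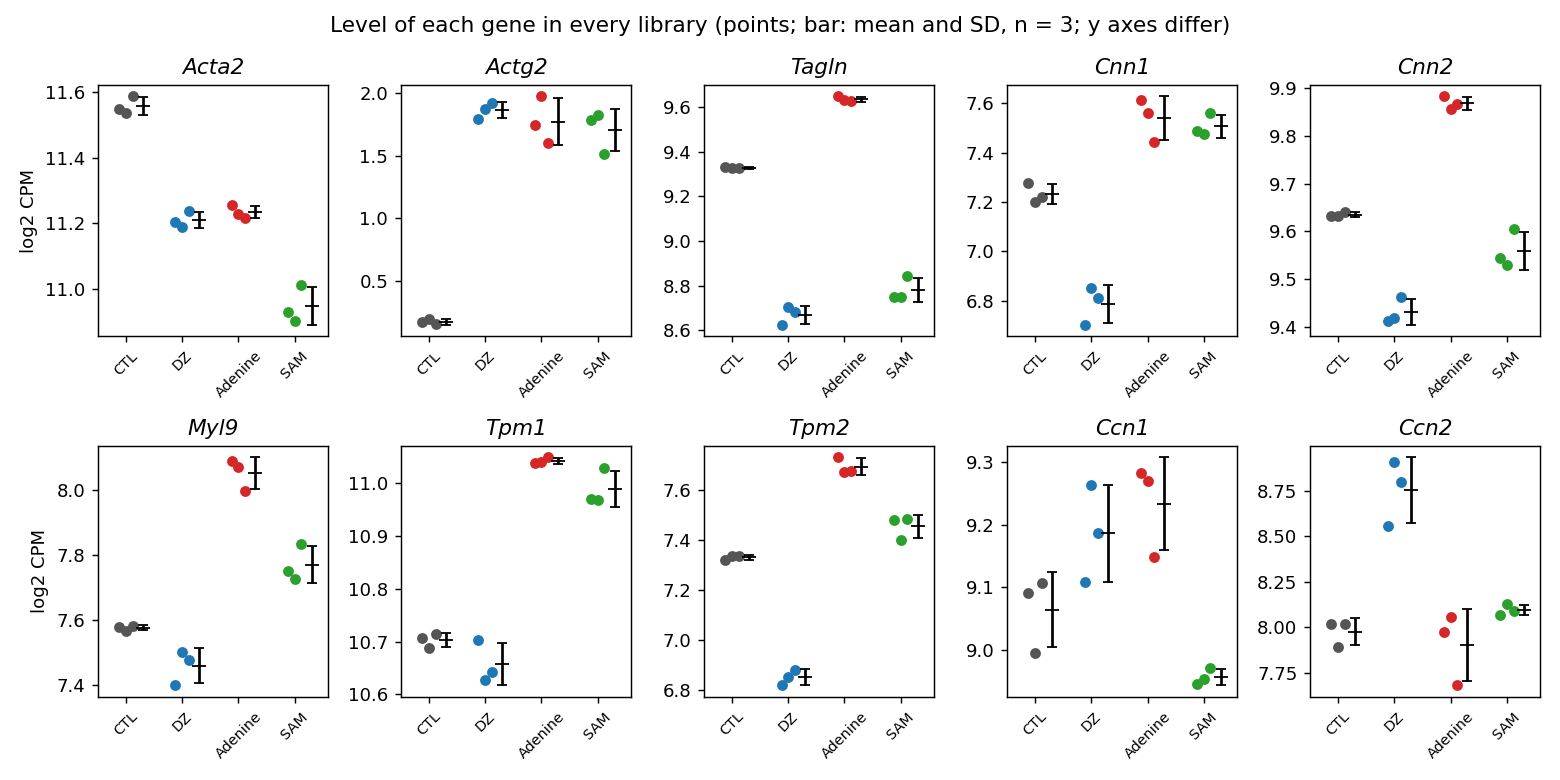
Log2 CPM of each gene (y axis, a different range in each panel) in the 3 dishes of CTL, DZ, adenine and SAM (points), with the mean and SD of each group (bars). All CTL dishes lie above all treated dishes for Acta2 and below all of them for Actg2, and the adenine dishes are the highest for Tagln, Cnn2, Myl9, Tpm1 and Tpm2.

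The actins moved in opposite directions. Acta2 (chromosome 19, 34217737 to 34232990), the smooth muscle alpha-actin of stress fibers, read 11.55, 11.54 and 11.59 log2 CPM in CTL. It read 11.20, 11.19 and 11.24 under DZ and 11.25, 11.23 and 11.22 with adenine, and 10.93, 10.90 and 11.01 under SAM. Every treated dish was thus below every CTL dish, and the SAM dishes were the lowest. The log2 fold changes of Acta2, each with a standard error of 0.034, were -0.35 for DZ, -0.32 for adenine and -0.61 for SAM, with Benjamini-Hochberg adjusted p = 5.23e-07, 4.2e-07 and 1.49e-10 in limma. In CPM, the mean fell from 3013 ± 55.6 (SD, n = 3) in CTL to 1976 ± 79.2 under SAM.

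Actg2 (chromosome 6, 83489887 to 83513551), the gamma-actin of enteric smooth muscle, read 0.17, 0.20 and 0.15 log2 CPM in CTL, the lowest level of the 10 genes. It read 1.79, 1.87 and 1.92 under DZ, 1.74, 1.97 and 1.60 under adenine, and 1.78, 1.82 and 1.51 under SAM. The treated groups overlapped each other and lay far above CTL, with 3.22-fold, 3.03-fold and 2.89-fold rises under DZ, adenine and SAM (adjusted p = 3.09e-08, 1.6e-08 and 1.9e-08 from limma). These values rest on 48 to 53 reads in the CTL libraries and 141 to 216 in the treated ones, and Actg2 was only just above the 1 CPM that the authors required in all samples. Actg2 reads amounted to between 0.0349% and 0.0373% of Acta2 reads in CTL and between 0.126% and 0.183% in the treated libraries. Acta2 and Actg2 encode near-identical proteins. None of the 1562 stretches of 76 bases (the read length) in the canonical Actg2 transcript occurred in a transcript of another gene. That search took exact full-length matches only, so stray reads from other actins, after trimming or with mismatches, were not tested.

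The actin-binding genes Tagln, Cnn1 and Cnn2 rose under adenine and fell under DZ. Tagln (chromosome 9, 45840909 to 45847404) encodes transgelin, an actin cross-linker and classical SRF target. It read 9.33 in each of the 3 CTL dishes, 8.63, 8.70 and 8.68 log2 CPM under DZ, 9.65, 9.63 and 9.63 under adenine, and 8.75, 8.75 and 8.85 under SAM. No group overlapped another, and Tagln moved up under adenine (0.31, standard error 0.030) but down under DZ (-0.66) and SAM (-0.55), with adjusted p = 2.29e-07, 2.13e-10 and 1.62e-10 from limma. In CPM, its mean went from 642 ± 1.39 in CTL to 407 ± 11.2 under DZ, 795 ± 6.32 under adenine and 440 ± 17.1 under SAM (SD, n = 3).

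Cnn1 (chromosome 9, 22010512 to 22020926) encodes the smooth muscle calponin, which binds actin and restrains myosin. It read 7.28, 7.20 and 7.22 log2 CPM in CTL, 6.70, 6.85 and 6.81 under DZ, 7.61, 7.56 and 7.44 under adenine, and 7.49, 7.47 and 7.56 under SAM. Unlike Tagln, it was therefore above CTL under SAM. Cnn1 thus changed by -0.45, 0.31 and 0.27 for DZ, adenine and SAM on the log2 scale, with adjusted p = 1.06e-06, 2.28e-05 and 5.79e-05 from limma. Cnn2 (chromosome 10, 79824410 to 79831896), the calponin of non-muscle cells, read 9.63, 9.63 and 9.64 log2 CPM in CTL, 9.41, 9.42 and 9.46 in DZ, 9.88, 9.86 and 9.87 in adenine, and 9.55, 9.53 and 9.60 in SAM dishes. None of these groups overlapped. Cnn2 had smaller changes of -0.20 under DZ and 0.23 under adenine, both called. Under SAM its -0.075 was not called (adjusted p = 0.02 from limma). It was called under median centring (-0.11) and without SAM replicate 3 (-0.098), whereas with plain read totals it was 0.047.

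Myl9, Tpm1 and Tpm2, which encode parts of the contractile filaments themselves, rose under adenine and SAM. Myl9 (chromosome 2, 156617084 to 156623579) encodes the regulatory light chain through which myosin is switched on. It read 7.58, 7.57 and 7.58 log2 CPM in CTL, 7.40, 7.50 and 7.48 under DZ, 8.09, 8.07 and 8.0 under adenine, and 7.75, 7.73 and 7.84 under SAM. After Actg2, this was the largest rise of a member under adenine, at 0.48 with a standard error of 0.036 (adjusted p = 9.96e-09 from limma), and under SAM the log2 fold change was 0.19 (adjusted p = 1.52e-04). Under DZ all dishes were below CTL, but the difference of -0.12 missed the threshold (adjusted p = 0.0122). It passed with robust empirical Bayes (adjusted p = 0.00959), median centring (-0.13), or a model of these 2 groups only (adjusted p = 0.00517).

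The tropomyosins wrap around actin filaments and set which proteins can bind them. Tpm2 (chromosome 4, 43514697 to 43524949) read 7.32, 7.33 and 7.33 log2 CPM in CTL, 6.82, 6.85 and 6.88 under DZ, 7.73, 7.67 and 7.68 under adenine, and 7.48, 7.40 and 7.48 under SAM. No group overlapped another, and the log2 fold changes were -0.48 (adjusted p = 5.61e-09), 0.36 (adjusted p = 3.19e-08) and 0.12 (adjusted p = 0.00159 from limma), the last lost under median centring (0.085, adjusted p = 0.0179). Tpm1 (chromosome 9, 66929870 to 66956953) read 10.71, 10.69 and 10.71 log2 CPM in CTL, 10.70, 10.63 and 10.64 in DZ, 11.04, 11.04 and 11.05 in adenine, and 10.97, 10.97 and 11.03 in SAM dishes. Tpm1 increased by 0.34 with adenine and by 0.29 with SAM, and its -0.046 under DZ was not called (adjusted p = 0.203 from limma). Tpm1 and Tpm2 give many splice forms, which gene-level values cannot separate.

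Of the secreted genes, Ccn2 rose under DZ, and Ccn1 changed little under any treatment. Ccn2 (chromosome 10, 24471333 to 24474900), connective tissue growth factor, read 8.02, 7.89 and 8.02 log2 CPM in CTL, 8.55, 8.91 and 8.80 under DZ, 7.97, 8.06 and 7.68 under adenine, and 8.07, 8.13 and 8.09 under SAM. All DZ dishes were above all other dishes, a rise of 0.78 over CTL (standard error 0.087, adjusted p = 2.36e-06 from limma), or from 252 ± 12.8 to 434 ± 53.4 CPM (SD, n = 3). Adenine dishes overlapped CTL (-0.071, adjusted p = 0.483), and without adenine replicate 3 the difference was 0.041. Under SAM the dishes were all above CTL, but the log2 fold change of 0.12 was not called (adjusted p = 0.22 from limma).

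Ccn1 (chromosome 3, 145352720 to 145355738), an integrin ligand and immediate early gene, read 9.09, 9.0 and 9.11 log2 CPM in CTL, 9.11, 9.26 and 9.19 under DZ, 9.28, 9.27 and 9.15 under adenine, and 8.95, 8.95 and 8.97 under SAM. The log2 fold changes were small, at 0.12, 0.17 and -0.11 for DZ, adenine and SAM (adjusted p = 0.0251, 0.00263 and 0.0337 from limma), and of these 3 only that of adenine was called. The call for adenine was lost without a variance trend (adjusted p = 0.0113), under median centring (0.12), and without adenine replicate 1 (0.14), adenine replicate 2 (0.15) or CTL replicate 2 (0.13). The value for DZ was called without DZ replicate 1 (0.16) and with plain read totals (0.15), and that for SAM was called under median centring (-0.15) but was 0.015 with plain read totals.

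**Figure D3:**
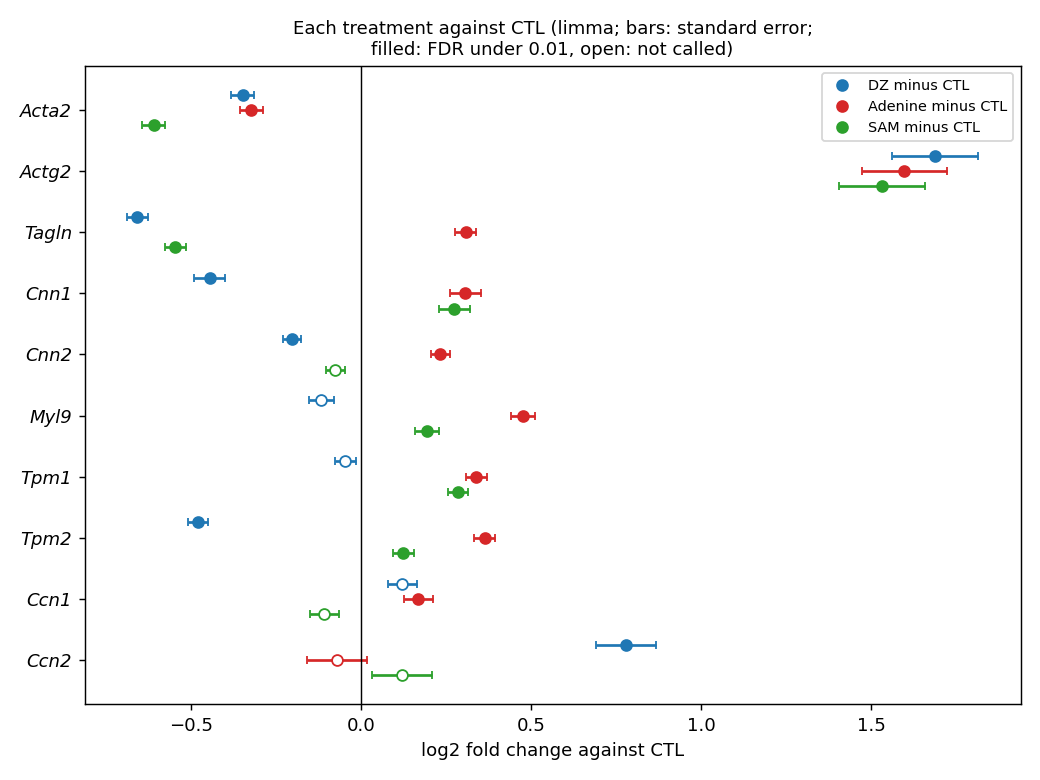
Log2 fold change of each gene against CTL (x axis) under DZ (blue), adenine (red) and SAM (green), with the standard error from limma; filled points passed a false discovery rate of 0.01. Acta2 lies below 0 and Actg2 above 0 in all 3 comparisons, and Tagln, Cnn1, Cnn2 and Tpm2 lie on opposite sides of 0 under DZ and adenine.

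The treatments were also tested directly against each other. Between DZ and adenine, 7 of 10 differed (1 higher and 6 lower under DZ) in limma. That total is close to the 64.3% of all genes called (32.1% higher and 32.2% lower). The lower ones were the actin-binding, light chain and tropomyosin genes: Tagln by -0.96, Tpm2 by -0.84, Cnn1 by -0.75, Myl9 by -0.59, Cnn2 by -0.44 and Tpm1 by -0.38 on the log2 scale. Ccn2 was higher under DZ by 0.85 (standard error 0.087, adjusted p = 3.48e-07 from limma). Acta2 (-0.024, standard error 0.034), Actg2 (0.091, standard error 0.13) and Ccn1 (-0.047, standard error 0.043) were not called. The median of the members was -0.41, beside -0.0015 over all genes.

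SAM and adenine are linked metabolically, since SAM can be broken down to adenine. Between them, 6 of 10 members were called, all lower under SAM, beside 42.7% of all genes (20.8% higher and 22% lower). Tagln showed the largest difference, -0.85 (standard error 0.030, adjusted p = 5.85e-12 from limma), with SAM below CTL and adenine above it. The other 5 were Cnn2 (-0.31), Acta2 (-0.29), Myl9 (-0.28), Ccn1 (-0.28) and Tpm2 (-0.24). No member was called higher under SAM by limma or by voom on the recovered reads, and 1 (Ccn2, 0.19) was higher at an unadjusted p under 0.05. Cnn1 (-0.032, standard error 0.046), Tpm1 (-0.053, standard error 0.030) and Actg2 (-0.066, standard error 0.13) were not called. With plain read totals the median of the members, -0.26, became -0.20.

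Between SAM and DZ, 9 of 10 members differed (6 higher and 3 lower under SAM), where 69% of all genes were called (34% higher and 35% lower). Cnn1 (0.72), Tpm2 (0.60), Tpm1 (0.33), Myl9 (0.31), Cnn2 (0.13) and Tagln (0.11) were higher under SAM, and Ccn2 (-0.66), Acta2 (-0.26) and Ccn1 (-0.23) were lower. The difference of Tagln was called at an adjusted p of 0.00356 and was lost without DZ replicate 1 (0.089, adjusted p = 0.0234 from limma), under median centring (0.087), without a variance trend, and in a model of these 2 groups. That of Ccn1 was lost with plain read totals (-0.13).

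**Figure D4:**
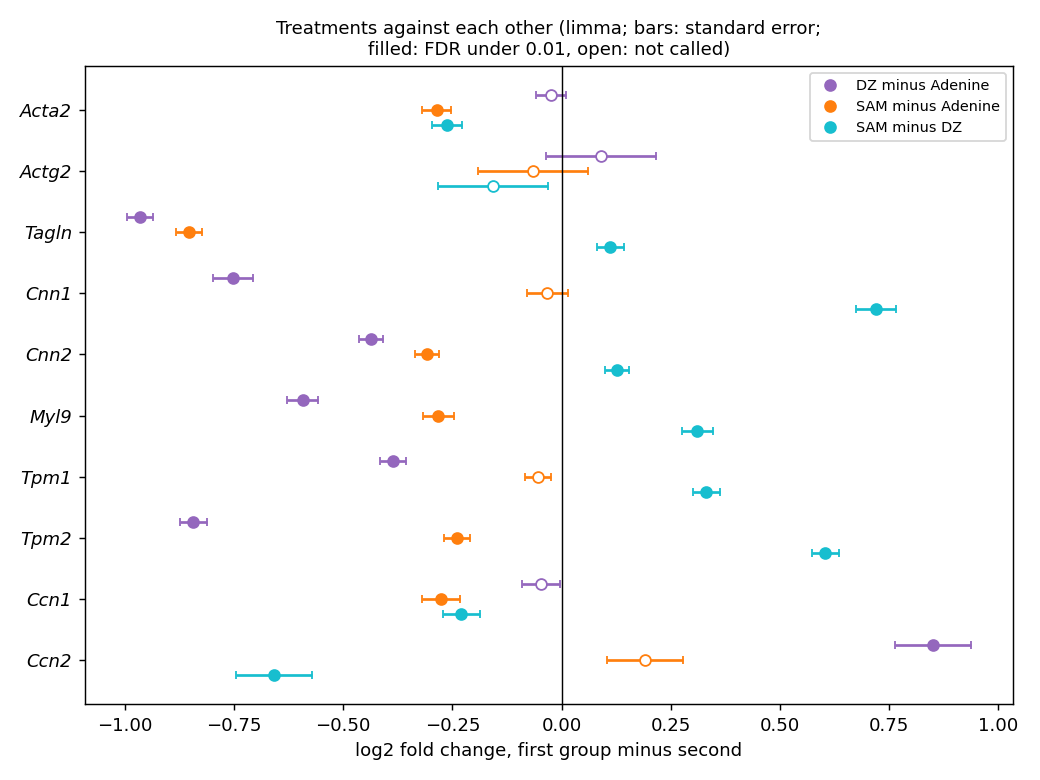
Log2 fold change between treatments (x axis, first group minus second) with the standard error from limma: DZ minus adenine (purple), SAM minus adenine (orange) and SAM minus DZ (cyan); filled points passed a false discovery rate of 0.01. The contractile genes from Tagln to Tpm2 lie below 0 for DZ minus adenine and above 0 for SAM minus DZ, and Ccn2 does the reverse.

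Compared per kilobase of annotated exons, Acta2 had the highest level of the 10 genes in all groups, at 9.87 log2 CPM per kilobase in CTL and 9.26 under SAM. In CTL it was followed by Cnn2 (8.33), Tagln (8.30), Ccn1 (8.04) and Tpm1 (7.69), and then by Myl9 (6.38), Ccn2 (6.30), Cnn1 (5.78) and Tpm2 (5.25), with Actg2 at -0.97. The length used was that of all annotated exons of a gene joined. For Tpm1 this was 8077 bases, whereas its canonical transcript has 2190. The place of Tpm1 in this order, also beside Acta2, therefore depends on the length used. Under DZ, Ccn2 (7.08) stood above Myl9 (6.26). Tagln and Tpm1 were both at 7.64 under DZ on this joined length. Before division by length, Tpm1 read 10.66 and Tagln 8.67 log2 CPM under DZ (means), so this match does not mean equal abundance. The 10 genes together took up 0.703% to 0.722% of the listed reads in CTL, 0.630% to 0.645% in DZ, 0.769% to 0.791% in adenine and 0.672% to 0.713% in SAM libraries. These shares add all members and are led by Acta2 and Tpm1.

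Other genes of the pathways were taken from lists drawn up by pathway membership, with earlier results of these data known. The shares and medians of these lists are therefore a description and not an independent test. Of 25 names of SRF and MRTF pathway genes outside the members, 23 were in the table, and DZ changed 8 of these (3 up, 5 down), adenine 18 (14 up, 4 down) and SAM 16 (7 up, 9 down). These are 34.8%, 78.3% and 69.6% of the list, where 45.9%, 61.6% and 69.3% of all genes were called, so that the share for SAM was that of all genes and the share for DZ lay below it. Their median log2 fold changes were -0.049, 0.22 and -0.069, of which that for adenine lay above the median of all genes. Srf itself was not called in any treatment (-0.062, 0.14 and 0.016, adjusted p = 0.25, 0.0101 and 0.747 from limma), but for adenine it was called in several alternatives, such as voom (0.14) and without CTL replicate 1 (0.18) or adenine replicate 3 (0.17). Mrtfa, a cofactor of SRF, rose by 0.22 with adenine and 0.34 with SAM, whereas its relative Mrtfb (-0.23, -0.068 and -0.069) was not called. Mylk, the kinase that phosphorylates the light chain encoded by Myl9, rose in all 3 treatments, by 0.64 under DZ, 1.36 under adenine and 1.70 under SAM. Smtn, a smooth muscle marker that binds actin, rose by 0.58 with adenine and 0.60 with SAM, and Lima1, an actin-bundling protein, by 0.51 and 0.48. Fhl1, a LIM domain protein of muscle, rose by 0.33 with adenine, and its -0.090 with SAM, though called, was lost without any 1 of 5 libraries (all 3 CTL libraries, SAM replicate 1 and SAM replicate 2; -0.093 to -0.077) and became 0.032 with plain read totals. That SAM call was also lost without a variance trend and in a model of SAM and CTL only. Flna, an actin cross-linker, was lower after DZ (-0.48) and SAM (-0.77), and Dstn, which severs actin filaments, was lower with all 3 treatments (-0.37, -0.32 and -0.50).

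All 22 other YAP and TEAD target genes were in the table. DZ changed 16 of them (11 up, 5 down), adenine 17 (9 up, 8 down) and SAM 17 (8 up, 9 down), which are 72.7%, 77.3% and 77.3% of the list beside 45.9%, 61.6% and 69.3% of all genes, with medians of 0.13, 0.12 and -0.070. Ankrd1, a stretch-induced nuclear protein, rose by 2.09 under DZ (standard error 0.11, adjusted p = 5.8e-10 from limma) and had -0.59 with adenine, which was called, and -0.29 with SAM, which was not (adjusted p = 0.0227) except without CTL replicate 2 (-0.39) or without a variance trend. Its level was low, with means of 1.74 log2 CPM in CTL, 3.83 under DZ, 1.15 under adenine and 1.45 under SAM. Axl, a receptor kinase, rose under DZ, adenine and SAM by 0.44, 0.60 and 0.69, Ccdc80, a matrix protein, by 0.69, 0.36 and 0.39, and F3, tissue factor, by 0.64, 0.50 and 0.33. Gadd45a, also a DNA damage gene, had log2 fold changes of -0.21, -0.99 and -2.14, and Nt5e, the ectoenzyme that makes adenosine, -1.29 with adenine and -1.62 with SAM. Amotl2, which binds YAP, had -0.53 with adenine and -0.68 with SAM. Targets on this list thus moved both ways under each treatment.

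Of 17 Hippo pathway and TEAD genes, 7, 12 and 11 were changed under DZ, adenine and SAM, or 41.2%, 70.6% and 64.7%, shares near those of all genes, with medians of 0.018, 0.12 and -0.11. Yap1 had 0.033, 0.13 and 0.092 for DZ, adenine and SAM, of which only 0.13 was called, and that call was lost under median centring (0.074) or without adenine replicate 1 (0.118), CTL replicate 1 (0.117) or CTL replicate 3 (0.114). For SAM, Yap1 was called with plain read totals (0.21) and without CTL replicate 2 (0.11) or SAM replicate 3 (0.118). Wwtr1, which encodes TAZ, rose by 0.21 with adenine and had -0.23 with SAM. Tead1 rose by 0.27 with adenine, and its -0.17 with SAM was called only in some alternatives, such as without SAM replicate 1 (-0.22) or SAM replicate 2 (-0.23) and with the replicate block (adjusted p = 0.0063 from limma). Tead3 had -0.40, 0.27 and 0.50, all called, and Vgll4, an inhibitor of TEAD factors, had -0.44, -0.43 and -0.30. Nf2, an upstream activator of the pathway, had -0.49 with adenine and -0.68 with SAM, whereas Sav1, a scaffold of its kinases, rose by 0.30 and 0.41. Mob1a, a coactivator of the LATS kinases, had -0.14 with adenine, a call lost with plain read totals (-0.076), and -0.32 with SAM, and its 0.088 with DZ was called but was lost without any 1 of the 6 libraries (0.077 to 0.095). The DZ call of Mob1a was also lost without a variance trend, with robust empirical Bayes and under median centring. Vgll3, a TEAD cofactor, rose by 0.30 with DZ and 0.18 with adenine, and its -0.091 with SAM was called but was lost without any CTL library, SAM replicate 1 or SAM replicate 3 (-0.099 to -0.067) and became 0.031 with plain read totals. That SAM call was also lost without a variance trend and in a model of SAM and CTL only. Tead2 was lower after DZ (-0.34) and higher after SAM (0.21), and its -0.054 with adenine was not called except under median centring (-0.11). Among 13 listed paralogs of the members, DZ changed 6 (4 up, 2 down), adenine 10 (8 up, 2 down) and SAM 11 (7 up, 4 down). These are 46.2%, 76.9% and 84.6%, beside 45.9%, 61.6% and 69.3% of all genes, so that the share for DZ was that of all genes. Actg1, a cytoplasmic actin, fell in all 3 comparisons (-0.40, -0.28 and -0.60 for DZ, adenine and SAM). Actb, the other cytoplasmic actin, had 0.065, 0.12 and 0.0064, the last of which was called only with plain read totals (0.13). The 0.12 was called, but not under median centring (0.072), without a variance trend, or without adenine replicate 2 (0.10), adenine replicate 3 (0.11), CTL replicate 1 (0.124), CTL replicate 2 (0.11) or CTL replicate 3 (0.134). Tpm3 rose by 0.22, 0.42 and 0.32, and Cnn3 by 0.15, 0.36 and 0.33. Ccn3 rose by 0.95 with adenine and 0.60 with SAM, Ccn4 had 0.24, -0.35 and -0.59, and Ccn5 rose by 0.26, 0.35 and 0.32.

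**Figure D5:**
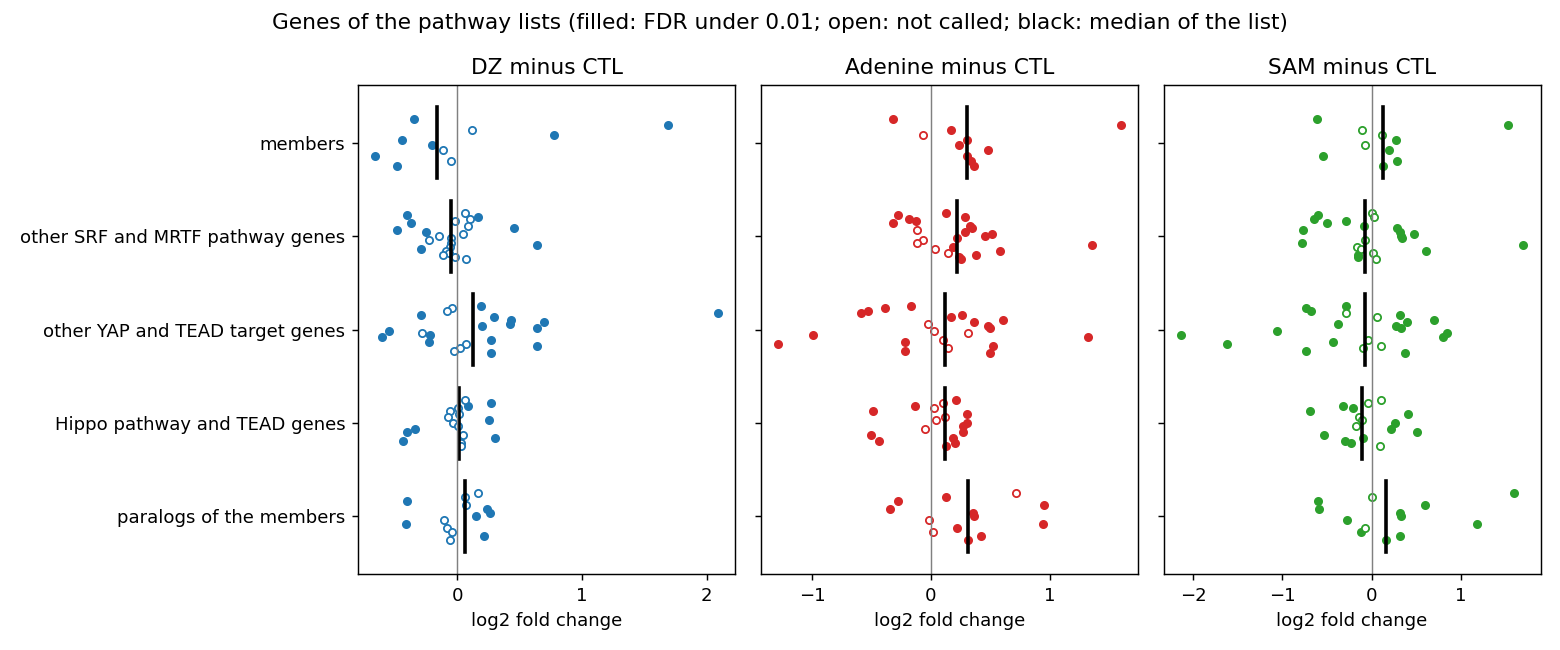
Log2 fold change against CTL (x axis) of every listed gene, by list (rows) and treatment (panels); filled points passed a false discovery rate of 0.01 and black bars are list medians. Most points of the SRF and MRTF list lie above 0 under adenine, and Ankrd1 is the point near 2 under DZ in the YAP and TEAD list.

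Over the 12 libraries, the genes whose log2 CPM was most like that of Acta2, among 9082 genes compared, were the glycolytic enzyme Aldoa (Pearson r = 0.988), Trappc9 (0.985) and Actg1 (0.983). Under SAM, Aldoa had a log2 fold change of -0.95 and Trappc9 of -0.48. Those most like Ccn2 were Nop9 (0.964), Sh3bp4 (0.962) and Chlsn (0.956), which rose under DZ by 0.27, 0.35 and 0.76. The libraries fall into 4 groups, so that these values mostly describe 4 group levels, and they are the highest of many.

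Markers of the cells moved beside the members. The summed level of the 10 listed fibroblast markers was 10089 to 10425 CPM in CTL, 12458 to 13515 in DZ, 16212 to 18182 in adenine and 12964 to 13680 in SAM libraries. Col1a1 and Col1a2 were the most abundant and led this sum. Under DZ, 8 of the 10 were called higher and 1 lower, beside 45.9% of all genes called. Vim was the lower one, at 10.10 log2 CPM under DZ and 10.49 in CTL, and S100a4 (-0.045) was not called. The summed level of Smtn, Lmod1 and Mylk, the listed smooth muscle markers, was 155 to 160 CPM in CTL, 161 to 167 in DZ, 258 to 262 in adenine and 268 to 289 in SAM libraries. Under DZ only Mylk was called (0.64), whereas Smtn (-0.088) and Lmod1 (-0.15) were not. Cd68 alone stood for the leukocyte list, at 3.03 to 4.0 CPM in CTL, 2.73 to 3.78 in DZ, 10.8 to 12.3 in adenine and 15.6 to 17.7 in SAM libraries. Tnnt3 alone stood for the skeletal muscle list, at 1.19 to 1.51, 1.70 to 2.64, 5.71 to 7.25 and 8.11 to 8.57 CPM in the same order. Their part in the changes of the members was not tested.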

How the data were processed

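Polyadenylated RNA was sequenced from 12 dishes, 3 in each of 4 groups. The authors used Trimmomatic for trimming, HISAT2 with GRCm39 and GENCODE vM27 for alignment, StringTie for quantification, and edgeR to drop genes under 1 CPM in any sample. Tool versions and the method of the scaling factors were not given in the sources used here. The deposited values are log2 CPM on normalized library sizes, and the authors did not pool replicates.

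Whole reads were recovered by solving for each library size with a prior count of 2, and came out for 100% of values within 0.05 of a whole read. Genes were tested with limma 3.58.1 in R 4.3.3 (lmFit, contrasts, eBayes with a variance trend, 1 model of 12 libraries, all 6 pairs of groups), with Benjamini-Hochberg adjustment over 12591 genes and an FDR threshold of 0.01. On simulated data with 200 genes changed 2-fold per comparison with CTL, 100% were recovered, and 1.48%, 0.99% and 1.48% of the calls for DZ, adenine and SAM were false. The simulation gave all genes the same spread, whereas in the real data 45.9% to 69.3% of genes were called against CTL. Most changes of the members were smaller than 2-fold, so these rates do not carry over to them. Symbols, positions and exon lengths came from GENCODE vM39 on GRCm39 (12575 genes matched), and promoter sequences from the GRCm39 genome. Tables and plots were made in Python 3.11.15. Strand use in counting was not given, and 7 of the 10 genes overlap a gene on the opposite strand. Where that gene was listed (4 members), its mean was lower by between 2.37 and 8.50 on the log2 scale.

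The members and lists were chosen with earlier results of these data known. Beside the members, named genes came from the 4 lowest adjusted p per list and comparison with CTL, from Srf, Mrtfa, Mrtfb, Yap1, Wwtr1, Tead1, Actb and Actg1, and from the 3 genes closest in Pearson r to Acta2 and to Ccn2 among called genes whose mean reached 3 log2 CPM. Alternatives were robust empirical Bayes, eBayes without a trend, a filter at a mean of 3 log2 CPM, log2(CPM + 1), median centring, total-count scaling, voom on the recovered reads, a model of each pair of groups, a replicate block, and leaving out each library. A further gene list is not reported here.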

Additional observations from a re-analysis of the deposited data

How the results depend on the processing

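Of 60 fold changes (10 genes in 6 comparisons), recomputed 894 times, 866 kept their direction and their side of the threshold, 11 lost the call, 8 gained it and 9 changed direction, all of the last without a call before or after. Among the 10 genes, the direction changes under total-count scaling were Cnn2 (0.047) and Ccn1 (0.015) under SAM, and Cnn1 (0.028) and Tpm1 (0.0070) for SAM minus adenine, and under median centring Acta2 for DZ minus adenine (0.013). Without 1 library, Ccn2 under adenine ranged from -0.15 to 0.041, and Cnn1 from -0.081 to 0.0050 and Actg2 from -0.15 to 0.034 for SAM minus adenine. Among the other genes named, Mrtfb (0.052), Vgll3 (0.031) and Fhl1 (0.032) under SAM and Tead2 under adenine (0.0080) changed direction under total-count scaling, and Tead1 under DZ (-0.0060), Srf (-0.023) and Actb (-0.033) under SAM under median centring. Without 1 library, Tead1 under DZ from -0.017 to 0.029, and under SAM Srf from -0.032 to 0.056 and Actb from -0.017 to 0.026. Mrtfb ranged from -0.19 to 0.134 under adenine and from -0.188 to 0.132 under SAM.

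Total-count scaling moved the median of the members to 0.37 for adenine, 0.24 for SAM, -0.20 for SAM minus adenine, -0.45 for DZ minus adenine and 0.22 for SAM minus DZ, and median centring moved it to 0.26 for adenine and -0.37 for DZ minus adenine. The filter at a mean of 3 log2 CPM, which removes Actg2, moved it to -0.20 for DZ. Counts of members called stayed within 1.5 times in all alternatives. Same-numbered dishes did not deviate together (Pearson r across genes between -0.1424 and 0.1815), and with the replicate block 7, 9 and 7 members were called for DZ, adenine and SAM, and 6, 7 and 9 for SAM minus adenine, DZ minus adenine and SAM minus DZ, the counts obtained without it. Actg2, with 48 to 216 reads per library, is the member that depth limits most, and the part of counting error in its spread was not tested.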

Other observations

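Among the listed paralogs, Myl12b, a non-muscle counterpart of Myl9, had log2 fold changes of -0.41 under DZ, 0.94 under adenine and 1.18 under SAM, all called in limma at a false discovery rate of 0.01, with Myl12a as a close paralog whose shared reads were not examined.

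Among the SAM libraries, replicate 3 had the highest value for 8 of the 10 members and was also the least deeply sequenced of the SAM libraries, with 47504412 reads on the listed genes. DZ replicate 1 had the lowest value of its group for 8 of the 10, and adenine replicate 3 and CTL replicate 2, which enters all 3 comparisons with CTL, for 7 each. Adenine replicate 1 had the highest value of its group for 7.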
